A study of Mus musculus with 5 samples.

Results

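The genes described here are 10 genes of purinergic signaling in mouse macrophages. They are *P2rx4* and *P2rx7*, which encode ATP-gated channels; *P2ry2*, *P2ry6*, *P2ry12*, *P2ry13*, and *P2ry14*, which encode nucleotide receptors coupled to G proteins; the adenosine receptor genes *Adora2a* and *Adora2b*; and *Entpd1*, which encodes the ectonucleotidase CD39. They were chosen by symbol, with earlier results of these data known, and matched to an Entrez gene identifier. They are 10 of the 17058 genes with a count in at least 1 library. All 10 passed the filter on low counts, which left 12576 genes for testing.

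The study asked how loss of *Adam17* in cancer cells changes the macrophages that they instruct through soluble molecules. RNA-Seq was performed on 5 libraries of bone marrow–derived macrophages (BMDMs) of the Balb/c strain, grown in M-CSF from mice of 6 to 12 weeks. In 2 libraries the BMDMs had shared medium for 48 hours with WT 4T1 cells, the unedited parental line, and in 3 libraries with *Adam17*-/- 4T1 cells. The 4T1 line comes from a mouse mammary carcinoma, and *Adam17*, which encodes a membrane sheddase, was disrupted by CRISPR/Cas9 in the cancer cells only. Cancer cells and macrophages were parted by a porous membrane, and the sequenced cells of both groups carried intact *Adam17*. All 3 *Adam17*-/- libraries carry the designation 2.8, so that loss of *Adam17* and other features of that line cannot be told apart. The labels number the libraries as repeats without naming separate mice or cultures, and p-values therefore measure the spread between these samples, which may be technical.

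Cells release ATP, UTP, and nucleotide sugars through channels and vesicles or when they are damaged. P2X receptors are channels that open on ATP, P2Y receptors respond to ATP, ADP, UTP, UDP, or UDP-glucose, and CD39 hydrolyzes ATP and ADP to AMP, from which the ectoenzyme CD73 forms adenosine. In macrophages these receptors are known for roles in chemotaxis, phagocytosis, and inflammasome activation, and adenosine receptors for damping inflammatory output.

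Macrophages cocultured with *Adam17*-/- 4T1 cells held less mRNA of 4 of the 10 genes and more of 0. The UDP receptor gene *P2ry6* was 2.03-fold lower, the ATP and UTP receptor gene *P2ry2* 1.85-fold lower, the adenosine receptor gene *Adora2b* 1.66-fold lower, and the ADP receptor gene *P2ry13* 1.27-fold lower. Levels are given as CPM, counts scaled to a library total that edgeR's TMM factors correct, and a gene passed when its p in edgeR's quasi-likelihood test, after Benjamini-Hochberg adjustment, was at most 0.05. Of all genes tested, 31.7% passed, 16.8% as lower and 14.9% as higher. The CPM of the groups did not overlap for 7 of the 10 genes, against 58.1% of all genes. The median log2 fold change was -0.23 over the 10 genes and 0.01 over all genes tested. *P2ry6* alone also had a log2 fold change of -1 or less, as did 0.867% of all genes, while 0 had 1 or more, against 3.36%. In RNA from whole cultures, fewer cells of a type and less RNA per cell cannot be told apart.

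**Figure D1:**
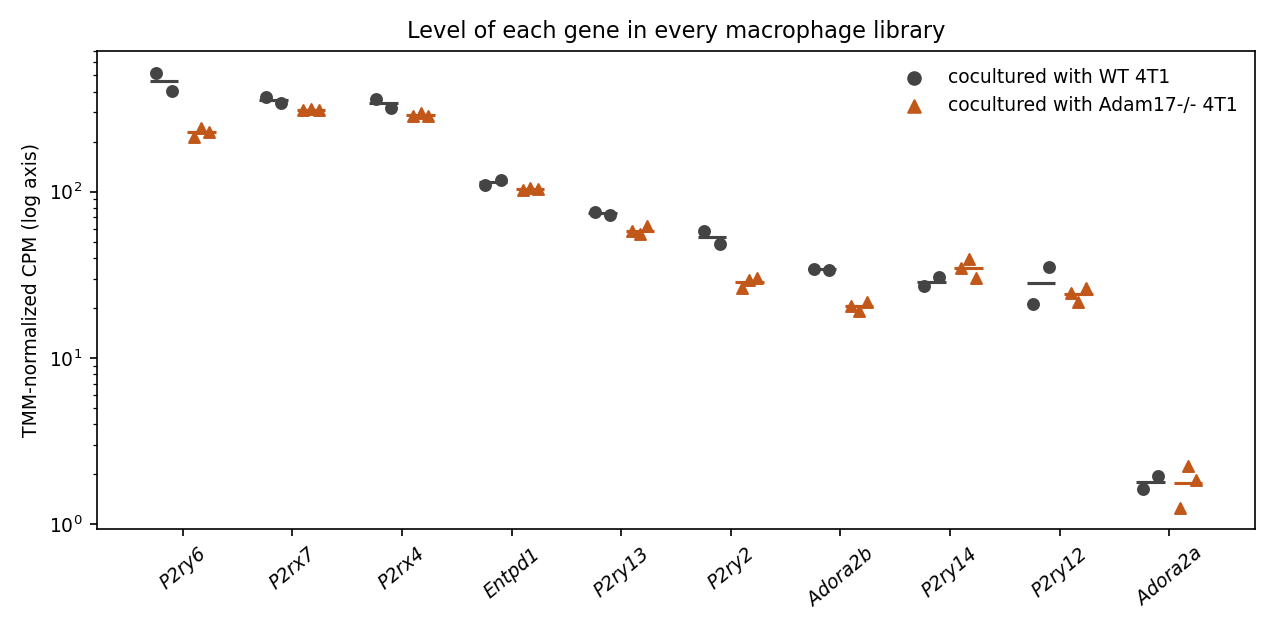
CPM of each of the 10 genes (log axis) in every library, with circles for BMDMs cocultured with WT 4T1 cells (n = 2), triangles for *Adam17*-/- 4T1 cells (n = 3), and a bar at each group mean. *P2ry6*, *P2ry2*, *Adora2b*, and *P2ry13* lie lower in all 3 *Adam17*-/- libraries, and *Adora2a* lies at 1.26 to 2.24 CPM in every library.

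The libraries held 14658694 to 20788373 counts, and a gene at 3 counts lies at 0.157 to 0.197 CPM. TMM factors were 0.920 to 0.963 for WT and 1.04 to 1.05 for *Adam17*-/- coculture. With library sizes alone the median of all genes moved to 0.16 on the log2 scale, and 73.7% of passing genes were higher, against 46.9% with TMM factors and 57.9% with upper quartile factors. All 10 macrophage markers lay at 1 FPKM or more (counts scaled to transcript length and library size), and 8 of them were lower in the *Adam17*-/- libraries, where their sum was 11886 to 12880 FPKM against 16980 to 17023 in WT. The defining receptor gene *Csf1r* was not among the 8 (log2 fold change, -0.29, adjusted p = 0.0520, edgeR). The macrophage marker sums were mostly *Lyz2*, at 11923 and 12176 FPKM in WT and 8418, 8116, and 8923 FPKM in *Adam17*-/- coculture. Of 10 neutrophil markers, 8 were higher, with a sum of 2324 to 2588 FPKM against 631 to 709. Most of this sum was *S100a9* (1380 to 1531 FPKM against 355 to 424) and *S100a8* (660 to 752 FPKM against 181 to 195). Of 10 megakaryocyte and platelet markers, 6 were higher and 2, *Pf4* and *Ppbp*, lower, with a sum of 1911 to 2103 FPKM against 3516 to 3896. *Pf4* and *Ppbp* made up 95.4% to 99.1% of that sum in each library, and the other 8 markers summed to 63.6 to 97.3 FPKM against 35.3 to 36.2. Dendritic cell markers summed to 22.4 to 30.1 FPKM against 7.66 to 13.8, and markers of mast cells, basophils, and eosinophils to 6.74 to 11.4 FPKM against 2.88 to 3.21. Epithelial markers summed to at most 3.62 FPKM in any library with *Krt5* at 0, lymphocyte markers to at most 1.91 with *Cd3g* and *Trbc2* at 0, and endothelial and stromal markers to at most 24.9, with 2 of 6 tested higher and 2 lower. The part of these other cell types in the results that follow was not tested.

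*P2ry6* encodes a receptor for UDP that macrophages use in chemokine production and phagocytosis. It lies on the minus strand at chr7:100937630-100975498 (GRCm38, RefSeq). Its level was 521 and 405 CPM in WT replicates 1 and 2 and 214, 241, and 229 CPM in *Adam17*-/- replicates 1, 2, and 3. The lower WT library still lay above every *Adam17*-/- library. The mean was 463 ± 81.9 CPM in WT (SD, n = 2) and 228 ± 13.5 CPM in *Adam17*-/- coculture (SD, n = 3), with a log2 fold change of -1.02 (SE 0.111, adjusted p = 0.000485, edgeR). By FPKM *P2ry6* was the most abundant of the 10 genes, at 235 in WT and 128 in *Adam17*-/- coculture, and it ranked 333 among all genes with a count. Without WT replicate 1 the log2 fold change was -0.83 and without *Adam17*-/- replicate 1 it was -0.96, so that the gene passed in both fits but not with a change of -1 or less.

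*P2ry2* encodes a receptor for ATP and UTP and is the neighbor of *P2ry6*, on the minus strand at chr7:100996568-101012053. WT replicates 1 and 2 held 57.9 and 48.4 CPM, and *Adam17*-/- replicates 1 to 3 held 26.4, 29.3, and 30.4 CPM. The highest of the latter stayed under the lowest WT value. The mean was 53.2 ± 6.68 CPM (SD, n = 2) and 28.7 ± 2.09 CPM (SD, n = 3), and the log2 fold change was -0.89 (SE 0.108, adjusted p = 0.000689, edgeR). Without WT replicate 2 it was -1.01. The ratio of *P2ry2* to *P2ry6* within a library differed by 0.13 on the log2 FPKM scale between the groups (exact permutation test, two-sided, p = 0.2, adjusted p = 0.3 over 6 ratios). With 2 libraries against 3 this test cannot give a p under 0.1. The 3 nearest tested genes on each side of the pair were *Fam168a*, *Relt*, *Arhgef17*, *Fchsd2*, *Atg16l2*, and *Stard10*, and 0 of these 6 passed, with log2 fold changes of -0.31 (*Fchsd2*) to 0.25 (*Atg16l2*).

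*P2ry12* and *P2ry13* encode receptors for ADP and *P2ry14* a receptor for UDP-glucose, and the 3 genes lie together on the minus strand of chromosome 3 between 59114623 and 59262985. *P2ry13* was at 75.1 and 72.8 CPM in WT and at 57.8, 55.3, and 61.8 CPM in *Adam17*-/- coculture. The groups did not overlap. Its log2 fold change was -0.34 (SE 0.0855, adjusted p = 0.0152, edgeR), and this call rested on single libraries and on scaling: without *Adam17*-/- replicate 1 the adjusted p was 0.0878, without replicate 2 it was 0.0866, and with library sizes alone it was 0.105 at a log2 fold change of -0.19.

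*P2ry12*, best known as a marker of microglia and as the platelet ADP receptor, lay at 21.1 and 35.3 CPM in WT and at 24.7, 21.6, and 26.5 CPM in *Adam17*-/- coculture. All 3 *Adam17*-/- values fell between the WT replicates. The log2 fold change of -0.21 (SE 0.188, adjusted p = 0.411, edgeR) turned on the WT library kept: it was -0.54 without WT replicate 1 (adjusted p = 0.00383) and 0.20 without WT replicate 2 (adjusted p = 0.221). A fit with 1 WT library takes its spread from the *Adam17*-/- libraries alone, which differed less among themselves than the WT pair, so that its p-values may be too small here and for the other genes. Platelet markers moved with the groups and their part in the *P2ry12* level was not tested.

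*P2ry14* was the only one of the 10 genes with a positive log2 fold change, 0.27 (SE 0.123, adjusted p = 0.123, edgeR), and it did not pass. It measured 27.1 and 30.5 CPM in WT and 34.9, 39.1, and 30.2 CPM in *Adam17*-/- coculture. The lowest *Adam17*-/- library lay just under the higher WT library. It passed without WT replicate 2 (0.35, adjusted p = 0.0467) and with library sizes alone (0.41, adjusted p = 0.0379). Within libraries, the log2 ratio of *P2ry13* to *P2ry14* was 0.79 ± 0.143 (SD, n = 2) in WT and 0.17 ± 0.256 (SD, n = 3) in *Adam17*-/- coculture (exact permutation test, two-sided, p = 0.2).

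The gene *Med12l*, which runs on the opposite strand across all 3 receptor genes, was higher in *Adam17*-/- coculture (6.18 ± 0.748 CPM in WT, n = 2, against 11.7 ± 0.987, n = 3; log2 fold change, 0.92; adjusted p = 0.00213, edgeR). It shares 9 exon bases with *P2ry12* and 0 with *P2ry13* or *P2ry14* in GENCODE. The library kit did not mark strand, so that reads of such overlapping genes cannot be told apart where they share sequence. *F630111L10Rik*, which overlaps *P2ry14* in RefSeq, rose from 0.639 to 2.39 CPM (log2 fold change, 1.90, adjusted p = 0.00182, edgeR). Over the 14 alternatives its log2 fold change ranged from 0.30 to 2.04, and that of *Med12l* from 0.48 to 1.06. *Gpr171* was also higher (0.51, adjusted p = 0.00993, edgeR; without *Adam17*-/- replicate 1, adjusted p = 0.0502) and *Siah2* lower (-0.44, adjusted p = 0.0352, edgeR). The *Siah2* call was lost without WT replicate 1 (adjusted p = 0.0667) and without *Adam17*-/- replicates 1 and 2 (0.125 and 0.130) and held in 6 of 14 alternatives, and *P2ry1*, *Mbnl1*, and *Igsf10*, the neighbors on the other side, did not pass.

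Summed per length, the transcripts of the 5 P2Y genes measured 328 and 287 FPKM with WT cells and 188, 203, and 196 FPKM with *Adam17*-/- cells. The mean sum was 308 ± 29.1 (SD, n = 2) and 196 ± 7.28 FPKM (SD, n = 3), and the groups did not overlap. *P2ry6* made up 76.0% ± 3.87 of this sum in WT and 65.4% ± 1.13 in *Adam17*-/- coculture. *P2ry14* made up 5.33% ± 1.08 and 11.1% ± 1.22, and *P2ry13* 9.17% ± 0.964 and 12.5% ± 0.968. These shares carry no test.

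**Figure D2:**
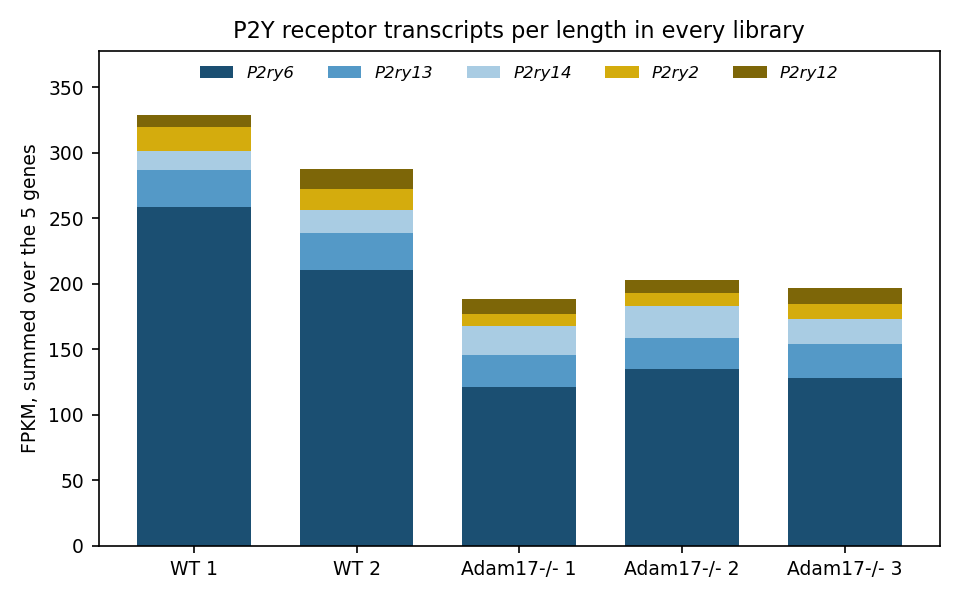
FPKM of the 5 P2Y receptor genes stacked in each library of BMDMs, with 2 bars for WT and 3 for *Adam17*-/- coculture. The whole bar is 287 FPKM or more in WT and 203 or less in *Adam17*-/- coculture, and most of the difference lies in the *P2ry6* segment.

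*Adora2b* encodes the adenosine receptor of lower affinity, and it accounted for nearly all adenosine receptor mRNA of the 2 receptor genes chosen, 96.4% of their FPKM in WT and 94.3% in *Adam17*-/- coculture. It lies on the plus strand at chr11:62248984-62266452. The gene measured 34.5 and 33.7 CPM with WT cells and 20.6, 19.3, and 21.8 CPM with *Adam17*-/- cells. The WT replicates lay close together and the highest *Adam17*-/- library far under them. The mean was 34.1 ± 0.546 CPM (SD, n = 2) against 20.5 ± 1.24 CPM (SD, n = 3), with a log2 fold change of -0.73 (SE 0.0963, adjusted p = 0.000979, edgeR).

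*Adora2a*, the receptor gene of higher affinity, was the least abundant of the 10 by FPKM, with 31 and 36 counts in WT and 23, 34, and 35 counts in *Adam17*-/- coculture. The groups overlapped, and the log2 fold change of -0.01 had a 95% interval of -0.68 to 0.65, so that a difference within it was not detectable at this depth. Its ratio to *Adora2b* differed by 0.69 on the log2 FPKM scale (exact permutation test, two-sided, p = 0.2).

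*P2rx7* encodes the channel that needs high ATP to open and that activates the inflammasome, and *P2rx4* a channel that opens at lower ATP and is found partly in lysosomes. They lie side by side on the plus strand, at chr5:122643927-122692336 and chr5:122707518-122729739. *P2rx4* measured 360 and 321 CPM in WT and 285, 296, and 285 CPM in *Adam17*-/- coculture, and *P2rx7* measured 370 and 340 CPM in WT and 310, 314, and 309 CPM in *Adam17*-/- coculture. For both genes, every WT library lay above every *Adam17*-/- library by CPM. The log2 fold change was -0.24 for *P2rx4* (SE 0.0829, adjusted p = 0.0536, edgeR) and -0.19 for *P2rx7* (SE 0.0787, adjusted p = 0.0933), and neither passed. Both passed without WT replicate 2, at -0.32 (adjusted p = 0.00353) and -0.25 (adjusted p = 0.0124), and *P2rx4* also under DESeq2 (adjusted p = 0.0386). By FPKM, which was scaled to library size, the means were 122 and 114 for *P2rx4* and 71.8 and 70.7 for *P2rx7*. The *P2rx7* groups overlapped by FPKM, at 72.9 and 70.8 in WT and 71.8, 71.3, and 69.0 in *Adam17*-/- coculture. The log2 ratio of *P2rx4* to *P2rx7* differed by -0.06 between the groups (exact permutation test, two-sided, p = 0.1, adjusted p = 0.3), the smallest p that this design allows. Of the 7 other genes tested around the pair, *Atp2a2* (-0.69, adjusted p = 0.000671, edgeR) and *Kdm2b* (-0.40, adjusted p = 0.00776) were lower. The *Kdm2b* call was lost without *Adam17*-/- replicate 1 (adjusted p = 0.0602) and without replicate 2 (0.0518) and held in 8 of 14 alternatives.

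**Figure D3:**
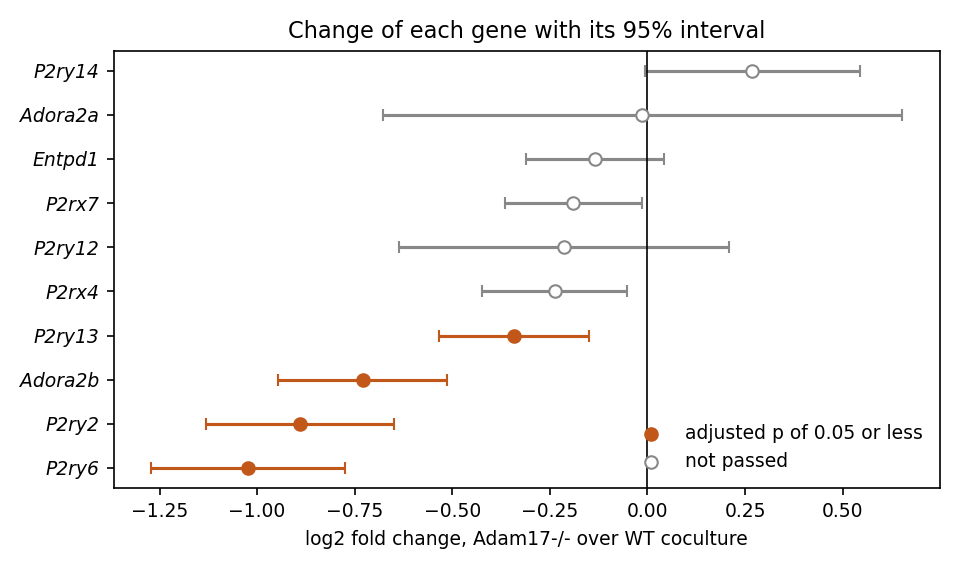
log2 fold change of each of the 10 genes in *Adam17*-/- over WT coculture (n = 3 and n = 2), with its 95% interval from edgeR. Filled points passed at an adjusted p of 0.05 or less; the interval of *P2ry6* reaches from -1.27 to -0.78 and that of *P2ry14* from -0.01 to 0.54.

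While the change of the *P2rx7* total did not pass, its annotated transcripts differed in opposite directions. Nearly all counts fell on 2 transcripts that share 12 exon starts and differ in the first exon: NM_011027, which begins upstream, and NM_001284402, which begins downstream. The coding parts of the 2 first exons lie at chr5:122644074-122644198 (125 bases) and chr5:122650424-122650539 (116 bases) on the plus strand of GRCm38 in GENCODE, 6513 bases apart by exon start. They are printed because the transcripts differ in them, with the start codon in capitals. In GENCODE the downstream first exon begins at its start codon. The upstream one also has a noncoding part, not printed, that tells the transcripts apart.
upstream: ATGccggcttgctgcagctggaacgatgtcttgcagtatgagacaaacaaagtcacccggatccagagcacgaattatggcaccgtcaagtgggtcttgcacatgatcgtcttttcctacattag
downstream: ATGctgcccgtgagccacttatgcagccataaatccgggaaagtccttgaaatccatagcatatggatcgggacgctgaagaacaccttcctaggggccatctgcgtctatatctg

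The downstream transcript took 23.5% and 15.6% of the *P2rx7* counts in WT coculture and 51.2%, 43.2%, and 33.8% in *Adam17*-/- coculture. The groups did not overlap, and the mean share was higher by 23.2 percentage points, or by 19.0 to 27.6 points with each library left out in turn and 22.3 points by FPKM. In CPM it measured 86.8 and 53.0 in WT against 159, 135, and 105 in *Adam17*-/- coculture. The upstream transcript measured 280 and 282 CPM in WT and 147, 172, and 203 CPM in *Adam17*-/- coculture. The mean of the upstream form was thus 1.62-fold lower (281 ± 1.43, n = 2, against 174 ± 27.7 CPM, n = 3) and that of the downstream form 1.90-fold higher (69.9 ± 23.9 against 133 ± 27.2 CPM). Each other *P2rx7* transcript held at most 1.19% of the counts in a library. The values are the authors' estimates, since a read in a shared exon fits both transcripts. The first exon makes up 5.83% of the upstream transcript and 2.43% of the downstream one, so that few reads tell them apart. The SDs above do not include the uncertainty of this estimate, and the values carry no test. The share did not overlap between the groups for 29.9% of 6418 transcripts, and did so with a difference of at least 10 points for 12.7% and of at least 20 points for 4.04%. Among the 10 genes, 12 transcripts of 5 genes entered this count, and 6 did not overlap. The main *P2rx4* transcript, for example, held 92.2% ± 1.18 of its counts in WT and 89.6% ± 0.686 in *Adam17*-/- coculture.

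**Figure D4:**
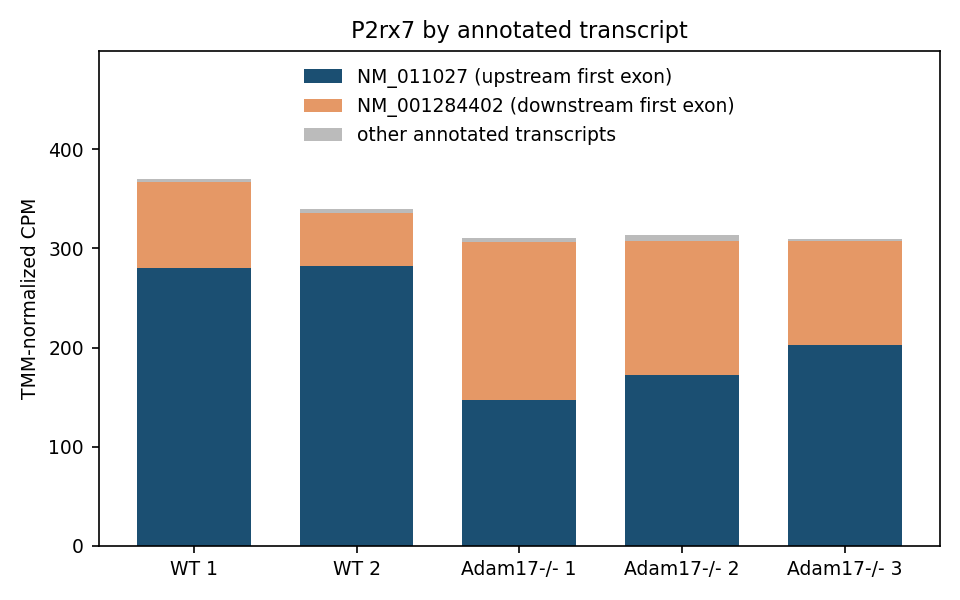
CPM of *P2rx7* in each library, split into the transcript with the upstream first exon, the transcript with the downstream first exon, and all others. The upstream segment is 280 and 282 CPM in WT and 147 to 203 CPM in *Adam17*-/- coculture, and the downstream segment is larger in all 3 *Adam17*-/- libraries.

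The promoter windows of RefSeq (GRCm38) reach from 250 bases before to 50 bases after a start. For both *P2rx7* transcripts, the RefSeq start differs from the GENCODE start of the first exon given above. Of the 10 genes, 8 matched an entry. *P2ry6*, which was also lower, and *Adora2a* had none. Both windows of *P2rx7* are printed because the transcripts that start there differed in opposite directions, and those of *P2ry2*, *P2ry13*, and *Adora2b* because these genes were lower. *P2ry2* has 2 overlapping windows with the same matches, and the upstream one is shown. Capitals mark matches on either strand to the motifs searched. The AP-1 motif was TGANTCA. For ETS factors such as PU.1 the letters GAGGAA were searched. The Sp1 motif was GGGCGG. The E-box searched was CACGTG, and it contains the letters ACGTG of the HRE. The CRE, searched as TGACGTCA, the TATA box, searched as TATAAA, and the NF-kB and ISRE motifs had no match in these windows.
P2rx7 upstream, chr5:122643677-122643976, plus strand: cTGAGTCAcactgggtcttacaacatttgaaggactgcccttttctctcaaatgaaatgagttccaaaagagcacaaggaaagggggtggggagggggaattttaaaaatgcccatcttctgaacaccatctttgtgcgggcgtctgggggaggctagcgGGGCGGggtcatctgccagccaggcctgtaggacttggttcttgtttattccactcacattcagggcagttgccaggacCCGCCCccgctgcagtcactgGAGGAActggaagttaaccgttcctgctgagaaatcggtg
P2rx7 downstream, chr5:122650133-122650432, plus strand: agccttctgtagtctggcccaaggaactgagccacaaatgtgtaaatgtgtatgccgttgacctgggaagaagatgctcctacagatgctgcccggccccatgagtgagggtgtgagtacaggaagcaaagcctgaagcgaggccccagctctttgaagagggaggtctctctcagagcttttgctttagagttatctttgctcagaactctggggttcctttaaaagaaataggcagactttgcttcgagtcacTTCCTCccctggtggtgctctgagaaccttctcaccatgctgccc
P2ry2, chr7:101012004-101012303, minus strand: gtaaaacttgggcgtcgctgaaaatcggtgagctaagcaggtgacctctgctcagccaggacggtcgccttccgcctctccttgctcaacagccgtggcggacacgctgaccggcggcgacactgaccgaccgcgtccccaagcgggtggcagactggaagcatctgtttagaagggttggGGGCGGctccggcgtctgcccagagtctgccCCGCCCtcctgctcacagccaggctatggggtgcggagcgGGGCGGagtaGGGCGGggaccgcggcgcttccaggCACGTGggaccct
P2ry13, chr3:59210833-59211132, minus strand: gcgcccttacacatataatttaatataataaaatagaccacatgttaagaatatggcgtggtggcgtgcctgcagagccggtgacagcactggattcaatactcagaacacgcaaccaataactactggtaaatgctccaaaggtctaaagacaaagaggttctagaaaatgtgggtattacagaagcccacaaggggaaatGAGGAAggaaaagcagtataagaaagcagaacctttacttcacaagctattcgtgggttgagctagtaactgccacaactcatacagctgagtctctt
Adora2b, chr11:62248734-62249033, plus strand: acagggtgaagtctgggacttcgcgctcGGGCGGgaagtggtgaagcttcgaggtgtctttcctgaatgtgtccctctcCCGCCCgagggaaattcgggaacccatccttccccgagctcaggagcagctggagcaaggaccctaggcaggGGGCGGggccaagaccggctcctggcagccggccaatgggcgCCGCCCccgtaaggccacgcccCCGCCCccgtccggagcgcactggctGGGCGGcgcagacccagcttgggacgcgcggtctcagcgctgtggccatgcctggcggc

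The upstream *P2rx7* window held an AP-1 match that begins at position -249, Sp1 matches at -90 and -11, and an ETS/PU.1 match at 11, counted from 1 at the start. The downstream window held only an ETS/PU.1 match, at position 6 from its own start. The *P2ry2* window held 4 Sp1 matches and 1 E-box match that overlaps 2 HRE matches, the *P2ry13* window held an ETS/PU.1 match at -48, and the *Adora2b* window held 6 Sp1 matches. Over 32851 promoter windows, 7.81% held an AP-1 match, 28.3% an ETS/PU.1 match, 35.7% an Sp1 match, 7.15% an E-box match, and 19.6% an HRE match. A match describes letters and is no evidence that a factor binds.

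*Entpd1* lies on the plus strand at chr19:40612366-40741602 and measured 110 and 118 CPM in WT and 102, 105, and 105 CPM in *Adam17*-/- coculture. The groups lay apart by a few CPM. The log2 fold change was -0.13 (SE 0.0786, 95% interval -0.31 to 0.04, adjusted p = 0.216, edgeR), and it was 0.01 with library sizes alone. Its FPKM ranged from 24.4 to 27.2 over the 5 libraries. *Nt5e*, which encodes CD73, the next enzyme of the pathway, measured 191 and 255 CPM in WT and 210, 199, and 192 CPM in *Adam17*-/- coculture. The *Adam17*-/- values lay between the WT replicates, and the gene did not pass (-0.16, adjusted p = 0.330, edgeR). Without WT replicate 1 it passed as lower (-0.36, adjusted p = 0.00366), and without WT replicate 2 the value was 0.07.

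By FPKM averaged over the libraries, the order of the 10 genes was *P2ry6*, *P2rx4*, *P2rx7*, *P2ry13*, *Entpd1*, *P2ry14*, *Adora2b*, *P2ry2*, *P2ry12*, and *Adora2a*. Neighbors in this order whose ranges over the 5 libraries overlapped were *P2ry6* and *P2rx4*, *P2ry13* and *Entpd1*, *Entpd1* and *P2ry14*, *P2ry14* and *Adora2b*, *Adora2b* and *P2ry2*, and *P2ry2* and *P2ry12*. *P2rx7* at 69.0 to 72.9 FPKM lay under *P2rx4* at 112 to 126 FPKM in every library. *Adora2a* lay at 0.520 to 0.910 FPKM. The order of the group means differed between the groups for 3 sets of neighbors. *P2ry13* lay above *Entpd1* in WT (28.1 against 25.8 FPKM) and under it in *Adam17*-/- coculture, and *P2ry2* lay above *P2ry12* in WT (17.3 against 11.7 FPKM) and under it in *Adam17*-/- coculture (10.4 against 11.1 FPKM), though not in replicate 2 (10.5 against 9.86 FPKM). *P2ry14* lay under *Adora2b* and *P2ry2* in WT (16.2 against 18.0 and 17.3 FPKM) and above both in *Adam17*-/- coculture (21.8 FPKM, against 10.4 for *P2ry2*). In WT replicate 2 alone, however, *P2ry14* lay above *P2ry2* (17.5 against 16.1 FPKM). These differences in order were not tested.

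Of 48 other purinergic genes in the lists, 44 had a count and 33 were tested. Among these, 3 were higher, 6 were lower, and 24 did not pass, and their median log2 fold change was -0.11. The share that passed was no higher than the 31.7% of all genes, of which 14.9% were higher and 16.8% lower. The genes at 0 in every library were *P2rx2*, *Entpd4b*, *Slc29a4*, and *Slc28a1*. Of the other 3 P2X genes tested, the other 3 tested genes with a P2Y name, and *Adora3*, 0 passed. *P2ry10* and *P2ry10b* were listed by name and are not established as nucleotide receptors. *P2ry1*, a further ADP receptor gene, measured 8.53 and 7.47 CPM in WT and 8.59, 11.8, and 11.8 CPM in *Adam17*-/- coculture (adjusted p = 0.0854, edgeR). *P2rx1* was at 5.02 ± 0.972 (SD, n = 2) and 6.82 ± 0.947 CPM (SD, n = 3; adjusted p = 0.0981, edgeR). *P2ry1* passed without *Adam17*-/- replicate 1 (adjusted p = 0.0370) and *P2rx1* without WT replicate 1 (0.0390). *P2ry10b*, whose counts were not whole, had a log2 fold change of 0.56 (adjusted p = 0.134, edgeR), which was 1.21 without WT replicate 2 (adjusted p = 0.000521) and 0.10 without WT replicate 1 (adjusted p = 0.669). *Adora3*, at 8.45 and 8.25 FPKM, was next to *Adora2b* in level among the adenosine receptor genes (-0.18, adjusted p = 0.198, edgeR).

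Among the genes listed under nucleotide release, 3 of 5 tested were lower and 0 higher, against 16.8% and 14.9% of all genes. The 3 include *Xkr8*, which encodes a scramblase and is no established channel for nucleotides. *Gja1*, which encodes connexin 43, a subunit of gap junctions and of hemichannels that can release ATP, measured 26.6 and 32.1 CPM in WT and 7.50, 7.43, and 12.3 CPM in *Adam17*-/- coculture. The groups lay far apart. Its log2 fold change was -1.68 (SE 0.198, adjusted p = 0.000641, edgeR). Of the endothelial and stromal markers, the endothelial genes *Kdr* (-0.74, adjusted p = 0.00265, edgeR) and *Cdh5* (-1.10, adjusted p = 0.0484) were also lower, and the stromal genes *Col3a1* (1.58, adjusted p = 0.00637) and *Pdgfrb* (1.20, adjusted p = 0.00148) were higher. Their part in the *Gja1* difference was not tested. *Lrrc8a*, a subunit of the volume-regulated anion channel, was at -0.42 (adjusted p = 0.0149, edgeR) and the scramblase gene *Xkr8* at -0.45 (adjusted p = 0.0373). Without *Adam17*-/- replicates 1 and 2, the *Lrrc8a* adjusted p was 0.0809 and 0.0743, and among the fits with 1 library left out *Xkr8*, whose counts were not whole, passed only without WT replicate 2. The *Xkr8* call held in 4 of 14 alternatives, with an adjusted p of 0.109 under DESeq2 and 0.0604 with upper quartile factors, and that of *Lrrc8a* in 9 of 14. *Panx1*, which encodes the pannexin channel, measured 2.77 and 2.36 FPKM and did not pass (adjusted p = 0.146).

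Of the surface ectoenzymes, *Entpd3* and *Acpp* were higher and *Cd38* lower. *Entpd3*, an enzyme of the CD39 family, held 25 and 8 counts in WT and 46, 43, and 57 counts in *Adam17*-/- coculture. Its log2 fold change of 1.66 (SE 0.373, adjusted p = 0.00949, edgeR) was 2.66 without WT replicate 1 and 1.09 without WT replicate 2. It was 0.59 when log2 FPKM with 1 added was compared instead of counts. *Acpp*, an acid phosphatase that can dephosphorylate AMP, rose by 0.38 (adjusted p = 0.0386), and the call was lost without WT replicate 1 (0.110) and without *Adam17*-/- replicates 1 and 3 (0.128 and 0.130). *Cd38*, an NAD glycohydrolase, was at -0.36 (adjusted p = 0.0158), lost without *Adam17*-/- replicates 1 and 2 (0.0811 and 0.0932) and held in 8 of 14 alternatives, not with library sizes alone (0.113). Of the intracellular NTPDases, *Entpd4* rose from 104 ± 4.84 to 147 ± 6.45 CPM (0.50, adjusted p = 0.00257, edgeR), and *Entpd7*, whose counts were not whole, was at -0.33 (adjusted p = 0.0192). *Entpd7* was lost without each *Adam17*-/- library in turn (0.0775 to 0.107) and with library sizes alone (0.126), and held in 7 of 14 alternatives. *Bst1*, *Enpp1*, and *Entpd5* did not pass, and their log2 fold changes turned on the WT library kept. They were 0.39, -0.38, and 0.40 without WT replicate 2 and 0.02, -0.02, and 0.16 without WT replicate 1.

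Of 10 tested genes for adenosine uptake and metabolism, *Ada* was lower and 9 did not pass, against 16.8% lower over all genes. *Ada*, which encodes the deaminase that turns adenosine into inosine, measured 10.9 and 8.98 CPM in WT and 5.09, 7.10, and 4.61 CPM in *Adam17*-/- coculture. The groups did not overlap. The log2 fold change was -0.84 (SE 0.193, adjusted p = 0.0104, edgeR), with an adjusted p of 0.0516 without *Adam17*-/- replicate 1. Single libraries decided some of the other 9. The nucleoside transporter gene *Slc28a2*, whose counts were not whole, was at 0.61 (adjusted p = 0.0852, edgeR) and passed as higher without WT replicate 2 (0.88, adjusted p = 0.0273). The adenosine kinase gene *Adk* passed as lower without WT replicate 1 (-0.55, adjusted p = 0.0129), as did *Pnp*, whose counts were not whole (-0.21, adjusted p = 0.0443), and *Slc29a3* without WT replicate 2 (-0.32, adjusted p = 0.0108). *Slc29a1* did not pass (-0.08, adjusted p = 0.543, edgeR), at 31.3 FPKM in WT and 33.0 FPKM in *Adam17*-/- coculture.

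**Figure D5:**
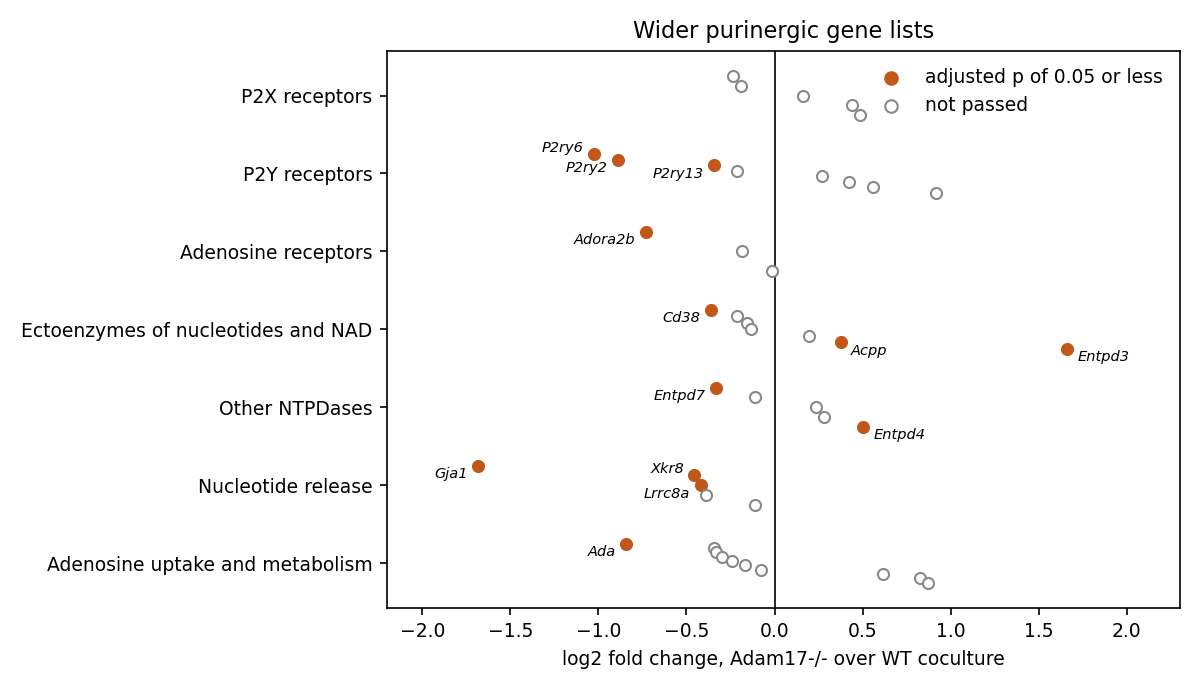
log2 fold change, *Adam17*-/- over WT coculture, of all 43 tested genes of the purinergic lists, the 10 genes described first included, by list. Filled and named points passed at an adjusted p of 0.05 or less, 10 on the lower side and 3 on the higher side.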

How the data were processed

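BMDM libraries were grouped by the sample labels, 2 WT and 3 *Adam17*-/-. The authors sequenced them on a BGISEQ-500, aligned reads to GRCm38 with HISAT, and deposited 2 values per transcript, an expected count (not normalized) and an FPKM value. The submitters' processing notes also name Bowtie, Bowtie2, RSEM, and DESeq2, and versions are not given in the sources used here. The deposited files list no transcript whose FPKM is under 0.01, and such transcripts were taken as 0.

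Gene sums of the expected counts were rounded. With edgeR 4.0.16 (R 4.3.3), genes were filtered by filterByExpr, scaled by TMM, and compared by a quasi-likelihood test (glmQLFTest) that had no covariate, with Benjamini-Hochberg adjustment over 12576 genes. SEs were derived from the F statistic. Ratios of FPKM within libraries were compared by exact permutation tests (Python 3.11.15, SciPy 1.17.1). The scripts were tested on simulated data. Totals were 14658694 to 20788373 counts, and no 2 libraries agreed within sampling noise. Symbols, coordinates, and promoters came from RefSeq and exons and overlaps from GENCODE annotations of GRCm38.

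The 10 genes and the lists were chosen with earlier results of these data known. Named genes were the 10, the list genes that passed or lay above 1 FPKM, and passing genome neighbors. Some of the list genes above 1 FPKM that did not pass are given by counts only. Alternatives were DESeq2 1.42.0, upper quartile and RLE factors, library sizes without factors, limma 3.58.1 on log2 FPKM with 0.1 or 1 added, other filters on low counts, the replicate number as a block, and each library left out in turn. The FPKM share of the *P2rx7* transcript, and its leave-one-out values, were added after seeing the data.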

Additional observations from a re-analysis of the deposited data

How the results depend on the processing

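*P2ry2*, *P2ry6*, and *Adora2b* kept their direction and passed under all 14 alternatives, with log2 fold changes of -1.01 to -0.68, -1.20 to -0.83, and -0.78 to -0.55. With library sizes without factors, and with limma on log2 FPKM with 0.1 or with 1 added, 1 of the 10 genes was higher, *P2ry14* (log2 fold changes, 0.41, 0.42, and 0.40), *P2ry13* no longer passed (-0.19, -0.20, and -0.19), *Entpd1* turned to 0.01 in each (0.0106, 0.0123, and 0.0118), and *Adora2a* to 0.13, 0.096, and 0.050. These 3 settings and upper quartile factors left 0 of the 10 genes past an absolute log2 fold change of 1, and with upper quartile factors *Adora2a* was at 0.044. Under the 3 settings, 3018, 2927, and 2867 of all genes were higher and 1077, 1016, and 1011 lower, and of the other purinergic genes 9, 7, and 7 were higher and 2 lower in each. *Cant1* turned to 0.038, 0.047, and 0.046, *Slc17a9* to 0.042, 0.068, and 0.060, *Slc29a1* to 0.070, 0.080, and 0.077, and *Nt5e*, under limma only, to 0.0035 and 0.0032. DESeq2 put *P2rx4* past the threshold (-0.24). The cause of these changes was not tested.

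With each library left out, 3 to 6 of the 10 genes were lower, 0 to 1 was higher, 0 to 2 were past an absolute log2 fold change of 1, 1089 to 2459 of all genes were higher and 926 to 2940 lower, and of the other purinergic genes 2 to 7 were higher and 1 to 10 lower. *P2rx4* ranged from -0.32 (without WT replicate 2, passed) to -0.16, *P2rx7* from -0.25 (without WT replicate 2, passed) to -0.13, and *P2ry14* from 0.18 to 0.38, where it passed only without WT replicate 2 (0.35). *P2ry12* ranged from -0.54 (without WT replicate 1, passed) to 0.20 (without WT replicate 2), *P2ry13* from -0.37 to -0.29, *Adora2a* from -0.18 to 0.21, *Nt5e* from -0.36 to 0.065, *Cant1* from -0.26 to 0.041, *Slc17a9* from -0.39 to 0.24, and *Slc29a1* from -0.18 to 0.019. Gained calls are marked here for the 10 genes only, not for the other genes. Where a WT library was left out, the remaining one was assumed to vary like the other group. The WT pair, however, differed more (chi-square per degree of freedom of 25.7 over genes) than the *Adam17*-/- pairs (5.22 to 6.32). The p-values of fits with 1 WT library may therefore be too small.

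The libraries share only replicate numbers 1 and 2, and the deviations of same-numbered libraries correlated at -0.12 and -0.05, so that the numbers were not taken as pairs. With the replicate number as a block, 3 of the 10 genes were lower, *P2ry13* no longer passed (-0.39, adjusted p = 0.0742), 1223 of all genes were higher and 1131 lower, and 3 of the other purinergic genes were lower. *Slc28a2* passed as higher (0.77, adjusted p = 0.0211), and *Acpp* (adjusted p = 0.168), *Cd38* (0.0577), *Entpd7* (0.131), *Xkr8* (0.168), and *Kdm2b* (0.0508) no longer passed. Low counts limited *Adora2a*.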
